A study of Ovis aries with 3 samples.

Results

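Keratinocytes of the rumen lining were examined in Hu sheep lambs fed 3 diets. The cells chosen carried transcripts of DNA replication and at most 1 transcript over 7 late cell cycle genes. A cell was a member when it held at least 2 UMIs (unique transcript tags) of CLSPN and RRM2 together, and no more than 1 UMI over TOP2A, CENPF, NUSAP1, TPX2, ASPM, PRC1 and HMMR. Late cell cycle UMIs below are those of these 7 genes only, and other genes of G2 and mitosis were not limited. Every cell also had at least 500 detected genes, under 20% of UMIs from 13 mitochondrially encoded genes and no UMI of PTPRC, COL3A1, PECAM1 or C1QA, which mark leukocytes, fibroblasts, endothelium and macrophages. By this rule 434 of 14965 cells passing the filters, out of 25789 deposited barcodes, were members, here called S-only cells. The tissue was rumen epithelium at 42 days of age, dissociated in trypsin and sequenced as droplet-based single cells. One library came from milk and concentrate starter feeding, 1 from milk and alfalfa hay and 1 from milk only, so all 3 diets shared milk. The labels do not give the number of animals behind a library. Because each diet had 1 library, diet, animal and library preparation cannot be told apart, no difference was checked across replicate animals, and no test was made.

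DNA replication is prepared in G1, when the origin recognition complex, CDC6 and CDT1 load the MCM helicase onto DNA. In S phase the loaded helicase is activated with CDC45 and GINS, and the replicative polymerases, the PCNA clamp and the supply of deoxynucleotides copy the genome while histone chaperones rebuild chromatin behind the fork. Many of these genes are switched on together by E2F factors, whereas genes of G2 and mitosis peak later. In a stratified epithelium, dividing keratinocytes lie in and near the basal layer, and cells that move upward leave the cycle and turn on spinous and then granular and cornified genes. CLSPN is an adaptor that carries the replication stress signal to the kinase CHEK1, and RRM2 is the small subunit of ribonucleotide reductase. Gene roles given here are known from human, mouse and yeast work.

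The 3 libraries differed in depth and in cells kept. The concentrate, hay and milk-only libraries held 60220174, 56861548 and 63057979 UMIs in 9214, 9543 and 7032 barcodes, of which 4610, 6979 and 3376 cells passed all filters. S-only cells numbered 177, 182 and 75. Their medians were 10447, 7452 and 17360 UMIs, against 7058, 5404 and 9421 UMIs in the 2421, 4009 and 2033 cells in which both sums were 0. The median mitochondrial share was 10.1%, 9.48% and 7.98% in S-only cells, against 10.5%, 9.94% and 5.81% in cells with both sums 0. Barcodes shared between libraries numbered 15 to 28 a pair, and no barcode was a member in more than 1 library.

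The cell label was set against marker genes. All 13 keratinocyte markers with a symbol in the files had UMIs in every library's S-only cells. KRT15, a keratin of basal cells, led them with 7110, 6259 and 8139 UMIs per 1000000 UMIs of the set (CPM) for concentrate, hay and milk only. A KRT15 UMI was found in 100% of the members of each library, and also in 49.0%, 64.3% and 62.7% of the barcodes with at least 2 UMIs of the leukocyte gene PTPRC, so a KRT15 UMI alone does not mark a keratinocyte. KRT17, another keratin, was found in 99.4%, 98.9% and 98.7% of members, against 9.80%, 46.4% and 42.6% of those PTPRC barcodes. The members' median depths of 10447, 7452 and 17360 UMIs exceeded the 3121, 3944 and 6285 UMIs of the PTPRC barcodes. Markers of other cell types were lower. Of 13 T and NK cell markers, 10, 12 and 12 were at 0 UMIs in the members, and CD3D, CD3E and CD3G were among them. The fibroblast gene DCN, which encodes decorin, stood at 13, 1.36 and 128 CPM in S-only cells, against 24.0, 1.84 and 185 CPM in cells with both sums 0, while COL3A1 was set to 0 by the rule. Fibroblast markers in all were at 0 for 6, 8 and 8 of 10, and summed to 16, 2.05 and 130 CPM. Of 14 myeloid markers 10, 12 and 10 were at 0, and of 10 endothelial markers 9, 8 and 9, with summed levels of 3.0, 3.41 and 6.85 CPM and of 2.0, 2.73 and 5.48 CPM. Smooth muscle and pericyte markers summed to 27.5, 23.2 and 8.90 CPM in S-only cells, against 20, 16.4 and 6.79 CPM in cells with both sums 0, ratios of 1.38 (1.02 to 1.83), 1.41 (0.964 to 2.01) and 1.31 (0.682 to 2.31), with 5, 7 and 6 of 9 at 0 in S-only cells. MYLK, a myosin kinase, gave most of that sum, at 22, 21.1 and 6.16 CPM, and MYH11, CNN1 and TAGLN, contractile genes of smooth muscle, were at 0 in the members of all 3 libraries. All neutrophil and mast cell markers and all melanocyte markers were at 0 in the concentrate and hay members. The gate itself leaves few cells of other types, so these levels are partly a product of the rule.

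The 2 genes of the rule were present in unlike mixtures. Both CLSPN and RRM2 were detected in 58.2% of concentrate, 48.9% of hay and 61.3% of milk-only members. CLSPN alone was detected in 26.6%, 37.4% and 26.7%, and RRM2 alone in 15.3%, 13.7% and 12%. CLSPN stood at 149, 195 and 114 CPM and RRM2 at 135, 121 and 98.0 CPM. A sum of exactly 2, the lowest the rule admits, was held by 72 of 177, 118 of 182 and 22 of 75 members. Hay thus had the most members at the limit, and it also had the shallowest cells.

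Cells next to the limits showed how the gate sits on a continuous range. With 1 UMI of CLSPN and RRM2 in place of 2, 238, 422 and 114 cells from concentrate, hay and milk only fell just outside. A list of 79 replication genes, without CLSPN and RRM2, summed to 3360, 3201 and 2366 CPM in members with a sum of 2, and to 2309, 2593 and 2113 CPM in those cells just outside. With 2 late cell cycle UMIs in place of 1, 71, 63 and 30 cells fell outside, and the same list summed to 4184, 3841 and 3579 CPM in them. Members with 4 or more UMIs of CLSPN and RRM2 stood at 4145, 3784 and 3994 CPM. Fewer cells expressing a gene and less RNA of it per cell cannot be told apart in such sums.

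S-only cells made up 3.84% (95% Clopper-Pearson interval 3.30 to 4.44) of concentrate, 2.61% (2.25 to 3.01) of hay and 2.22% (1.75 to 2.78) of milk-only cells. Shares of this kind depend on depth, so each cell was also thinned to 3000 UMIs. Under the same rule the thinned shares were 2.12% (93 of 4395 cells), 0.951% (63 of 6623) and 0.967% (28 of 2896), leaving out 215, 356 and 480 shallower cells. Under this rule the concentrate library was highest at both depths, and hay and milk only changed places within overlapping intervals. With at least 3 UMIs of CLSPN and RRM2 required, the shares were 2.28% (1.87 to 2.75), 0.917% (0.707 to 1.17) and 1.57% (1.18 to 2.05), so milk only then stood above hay. Cells with at least 1 thinned UMI of CLSPN or RRM2 were 12.9%, 9.90% and 8.36%. Those that also had no thinned late cell cycle UMI were 4.71% (4.10 to 5.38), 4.56% (4.07 to 5.09) and 3.18% (2.57 to 3.88). By that measure concentrate and hay were alike and milk only was lower. As a background, 7 of 51, 2 of 28 and 32 of 378 cells with at least 2 PTPRC UMIs, a leukocyte gene, had at least 2 UMIs of CLSPN and RRM2. Their median depths were 3121, 3944 and 6285 UMIs. These shares of 13.7%, 7.14% and 8.47% set no limit on late cell cycle UMIs, unlike the S-only shares. Without that limit, 15.2%, 7.52% and 11.6% of the cells passing all filters had at least 2 UMIs of CLSPN and RRM2. Leukocytes can divide, so the share in PTPRC cells is not a measure of free RNA alone. The intervals here cover counting error only.

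Among cells with at least 2 UMIs of CLSPN and RRM2, S-only cells were 25.3% with concentrate, 34.7% with hay and 19.1% with milk only. The others, 523, 343 and 317 cells here called S-and-mitotic, had 2 or more late cell cycle UMIs. Their medians were 13318, 8849 and 22950 UMIs, deeper than the members of the same library in each case. After thinning, the share of cells with a CLSPN or RRM2 UMI that had no late cell cycle UMI was 36.4%, 46.0% and 38.0%. Hay held the highest share in both forms.

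The replication list was higher in S-only cells than in cells with both sums 0 in every library. It summed to 3733, 3329 and 3311 CPM in S-only cells, against 1243, 1347 and 1182 CPM, ratios of 3.0 (95% exact conditional interval 2.93 to 3.08), 2.47 (2.40 to 2.55) and 2.80 (2.71 to 2.89) for concentrate, hay and milk only. Per cell, the median was 36.8, 33.8 and 35.4 list UMIs per 10000 UMIs in members, against 10.8, 11.8 and 10.7 in cells with both sums 0. With every cell thinned to 3000 UMIs the mean was 12.1, 9.75 and 9.89 list UMIs, against 3.82, 4.02 and 3.65. The rule chose these cells through 2 genes of the same programme, so this contrast describes the gate and is not support for it.

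**Figure D1:**
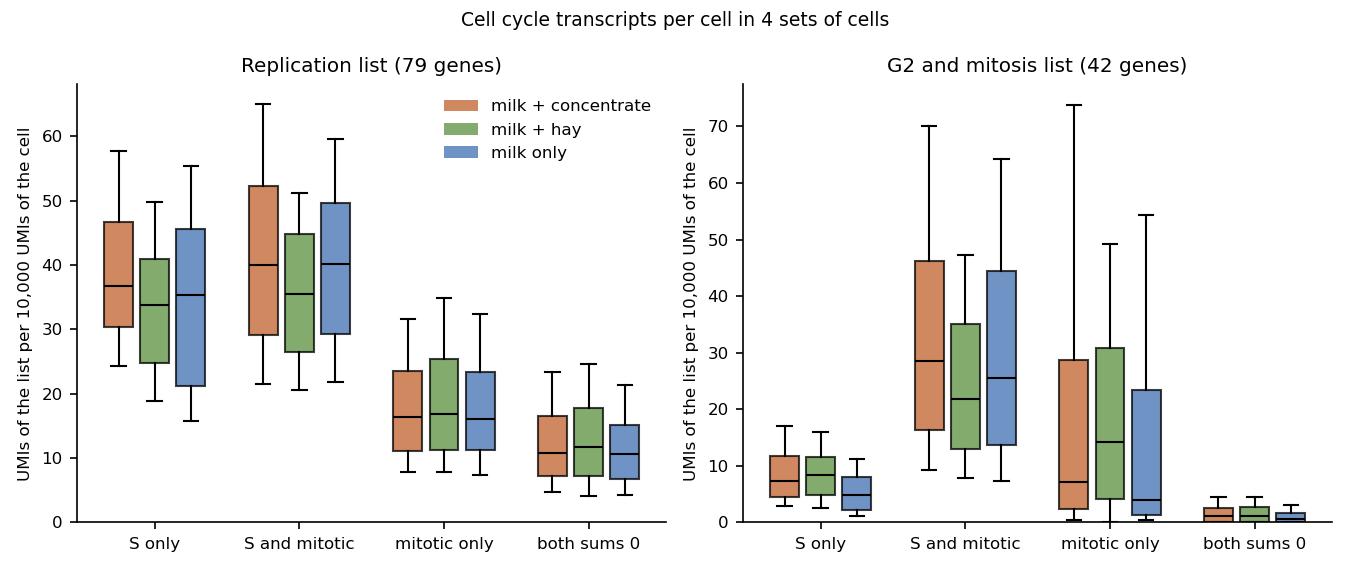
Transcripts of 79 replication genes (left) and 42 G2 and mitosis genes (right) per 10000 UMIs of a cell, in 4 sets of cells and 3 libraries. Boxes run over the middle quartiles with the median as a line, and whiskers reach the 10th and 90th percentiles of cells. Replication medians of S-only cells (36.8, 33.8 and 35.4) lie near those of S-and-mitotic cells, while their G2 and mitosis medians (7.26, 8.34 and 4.78) lie far below those of S-and-mitotic cells (28.6, 21.8 and 25.5).

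Calls across genes were made for 4261 genes that averaged at least 10 CPM over the S-only and both-sums-0 sums of the 3 libraries, the genes of the rule left out. A gene was called when its ratio was at least 1.5-fold with a 95% interval that excluded 1, and was counted when called the same way in all 3 libraries. Of all measured genes 198 (4.65%) were called higher and 38 (0.892%) lower in S-only cells. In single libraries, 480 (11.3%), 403 (9.46%) and 677 (15.9%) were called higher with concentrate, hay and milk only, and 130 (3.05%), 103 (2.42%) and 160 (3.75%) lower. The median log2 ratio of all measured genes was 0.12, 0.12 and 0.18. Of 50 measured replication genes, 41 were called higher in all 3 libraries and 0 lower, and their median log2 ratio was 1.85, 1.44 and 1.74. The level limit averaged in the S-only sums, so a gene low in cells with both sums 0 could enter through high S-only levels. CDC6 was such a gene, at 17.0, 21.1 and 21.9 CPM in S-only cells, against 1.16, 1.27 and 0.744 CPM. The counts of genes called higher, here and by role below, are thus partly fixed by that limit.

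Origin licensing genes stood far above cells with both sums 0. Of 14 measured, 11 were called higher in all 3 libraries, and the list summed to 674, 550 and 556 CPM in S-only cells, against 153, 173 and 129 CPM. CDC6, the loader of the MCM helicase, was at 17.0, 21.1 and 21.9 CPM in S-only cells, against 1.16, 1.27 and 0.744 CPM. Its ratios were 14.7 (8.34 to 26.4), 16.7 (9.71 to 28.7) and 29.5 (15.7 to 57.5), and the 3 libraries' S-only levels lay close together. ORC1, the ATPase subunit of the origin recognition complex that comes and goes with the cycle, was at 37.4, 21.8 and 34.9 CPM, against 2.68, 4.42 and 2.56 CPM. CDT1, the partner of CDC6 in loading, was at 133, 96.1 and 86.3 CPM, against 18.4, 23.8 and 11.4 CPM.

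The helicase subunits followed in each library. MCM5 was at 49.4, 45.7 and 58.2 CPM in S-only cells, against 6.04, 7.48 and 6.37 CPM. MCM6 was at 42.9, 40.2 and 50.0 CPM, against 7.51, 10.2 and 5.21 CPM, a ratio of 9.60 (7.05 to 13) with milk only and 3.93 (2.90 to 5.25) with hay. MCM3 was at 49.9, 26.6 and 16.4 CPM, against 6.83, 6.96 and 4.88 CPM. The S-only levels of MCM3 lay further apart between libraries than those of MCM5 and MCM6, with concentrate highest. MCM10, which helps to start the helicase, was at 76.9, 74.3 and 64.4 CPM, against 16, 17.9 and 12.3 CPM. GMNN, the inhibitor of CDT1, was at 26.5, 17.7 and 17.8 CPM, against 4.36, 4.42 and 5.35 CPM. ORC2, ORC3 and MCMBP were the licensing genes not called in all 3 libraries, with ratios of 1.41, 1.64 and 1.15 for ORC2.

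Genes of helicase activation and fork protection were called higher for 6 of 6 measured. WDHD1, which couples the helicase to the lagging strand polymerase, was at 41.9, 35.5 and 26.0 CPM in S-only cells, against 5.20, 7.87 and 4.23 CPM. TIMELESS, of the fork protection complex, was at 37.4, 34.1 and 24.0 CPM, against 8.56, 9.14 and 3.86 CPM. GINS2, a subunit of the active helicase, was at 23.0, 22.5 and 17.1 CPM, against 4.68, 6.26 and 4.60 CPM. TOPBP1, an activator of the checkpoint kinase ATR, was at 99.9, 88.6 and 80.1 CPM, against 26.3, 28.8 and 24.5 CPM. TIPIN, the partner of TIMELESS, and DBF4, the activator of the CDC7 kinase, had smaller ratios of 1.77 to 2.21 and 1.91 to 2.59. CDC45 fell under the level needed to be measured, at 14, 14.3 and 11.6 CPM, against 1.26, 1.62 and 0.744 CPM.

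Replicative polymerases were measured for 3 genes, and all 3 were called higher. POLE2, a subunit of the leading strand polymerase, was at 19.5, 21.8 and 11.6 CPM in S-only cells, against 1.94, 4.42 and 2.14 CPM. POLA1, the catalytic subunit of the priming polymerase, had ratios of 2.16, 2.38 and 2.14. POLD2, a subunit of the lagging strand polymerase, had ratios of 2.24, 2.07 and 2.52. These last genes thus stood at about the same ratio in every library.

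The clamp and its handlers were called higher for 9 of 11 measured genes. PCNA, the sliding clamp, was at 85.4, 64.1 and 101 CPM in S-only cells, against 11.4, 13.3 and 12.7 CPM, ratios of 7.49 (6.09 to 9.19), 4.82 (3.78 to 6.09) and 7.93 (6.44 to 9.73). ATAD5, which takes the clamp off DNA, was at 61.4, 64.8 and 47.9 CPM, against 7.72, 11.4 and 5.30 CPM. The clamp loader subunits RFC2, RFC3 and RFC4 had ratios between 2.48 and 4.79. LIG1, which seals Okazaki fragments, was at 62.9, 32.7 and 37.0 CPM, against 21.3, 21.2 and 10.7 CPM, with the lowest ratio (1.55) in hay. RFC1 and RNASEH2B were not called in all 3 libraries.

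Deoxynucleotide supply was measured for 2 genes beside the rule gene RRM2. RRM1, the large subunit of ribonucleotide reductase, was at 51.4, 47.7 and 47.3 CPM in S-only cells, against 14, 15.2 and 12.5 CPM. DTYMK, thymidylate kinase, was at 81.4, 117 and 109 CPM, against 21.8, 37.7 and 24.8 CPM. RRM1 levels in S-only cells were alike in the 3 libraries. TYMS, thymidylate synthase, and TK1, thymidine kinase, were under the measured level, at 12.5, 10.2 and 8.90 CPM for TYMS against 1.94, 2.49 and 1.49 CPM.

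Chromatin assembly and maintenance methylation genes were called higher for 10 of 14 measured. ASF1B, a histone chaperone, was at 25.5, 21.8 and 16.4 CPM in S-only cells, against 1.10, 1.44 and 1.91 CPM. UHRF1, which brings the methyltransferase DNMT1 to copied DNA, was at 137, 170 and 132 CPM, against 11.3, 21.3 and 10.4 CPM, ratios of 12.1 (10.1 to 14.5), 8.00 (6.84 to 9.34) and 12.7 (10.4 to 15.4). DNMT1 was at 233, 196 and 186 CPM, against 65.4, 73.7 and 55.1 CPM. CHAF1A, the large subunit of chromatin assembly factor 1, was at 29.5, 22.5 and 16.4 CPM, against 4.41, 4.77 and 2.28 CPM. HELLS, a chromatin remodeller, was at 190, 144 and 121 CPM, against 28.0, 35.0 and 19.3 CPM. ANP32B, ANP32E, ASF1A and SMARCA5 were not called in all 3 libraries, with ratios of 1.11, 1.18 and 1.5 for ANP32B.

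**Figure D2:**
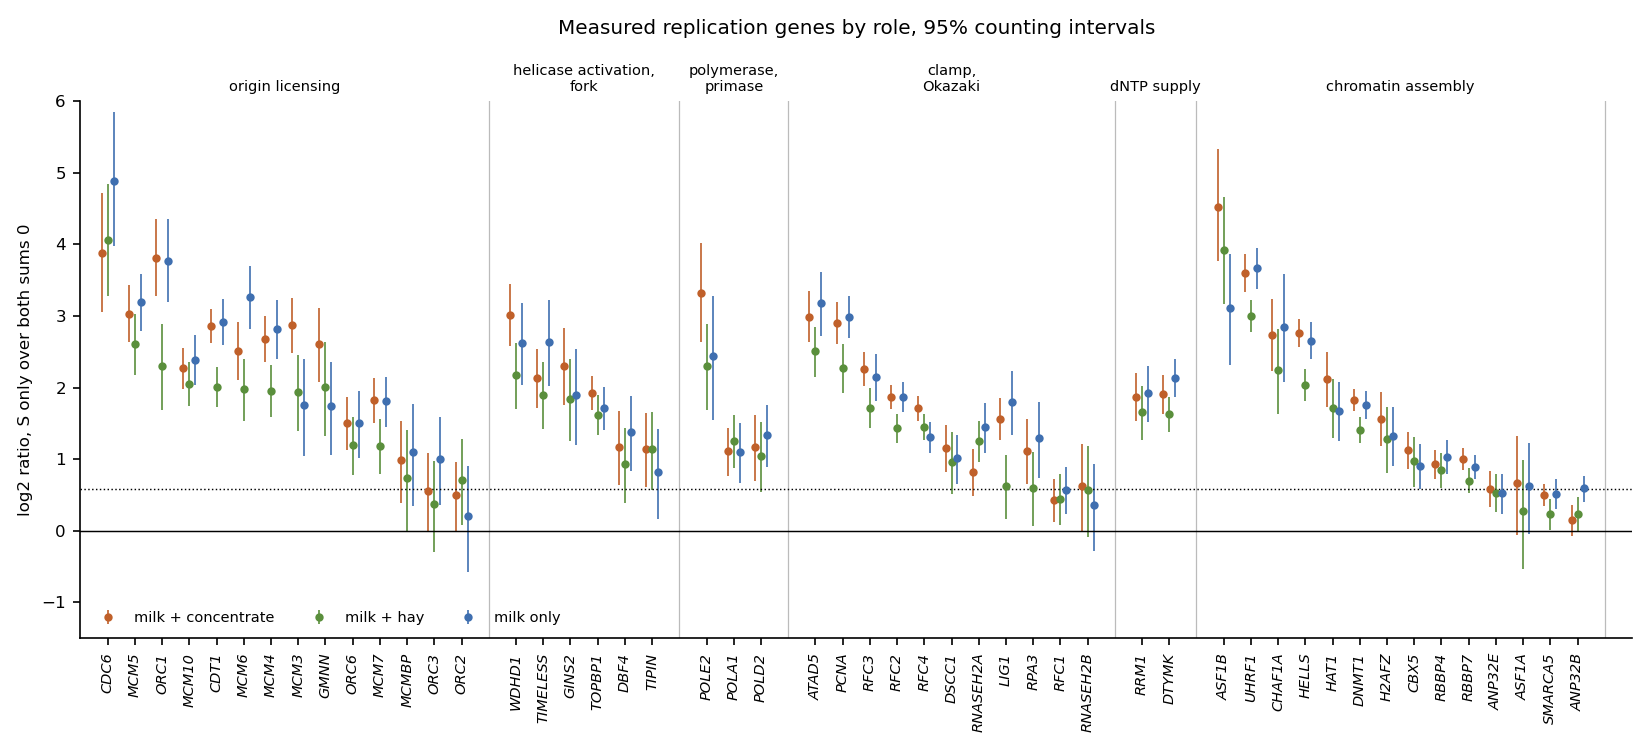
Log2 ratio of S-only cells over cells with both sums 0 for the 50 measured replication genes, ordered by role, in 3 libraries. Points are ratios of CPM, bars are exact conditional 95% intervals for counting error, and the dotted line marks 1.5-fold. CDC6 stands highest among the licensing genes in each library, and all points lie above 0.

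Checkpoint and repair genes of S phase were called higher for 10 of 13 measured. BRCA1, which acts in repair by homologous recombination, was at 35.9, 47.7 and 21.9 CPM in S-only cells, against 1.58, 2.23 and 0.884 CPM, ratios of 22.8 (14.7 to 36.2), 21.4 (14.7 to 31.3) and 24.8 (13.6 to 46.3). Of the genes picked by the size of their smallest ratio over the libraries, BRCA1 came first. BARD1, its partner, was at 43.4, 47.0 and 24.7 CPM, against 5.31, 9.62 and 2.60 CPM. BRCA2, which acts in the same repair route, was at 221, 162 and 110 CPM, against 33.4, 36.4 and 12.1 CPM. RAD54L had ratios of 19.0, 7.65 and 11.5, and FANCI, of the Fanconi pathway, had ratios of 9.50, 5.25 and 8.25. CHEK1, the checkpoint kinase that CLSPN serves, was at 34.5, 31.4 and 32.2 CPM, against 7.30, 8.05 and 6.79 CPM. CHEK1 levels were alike in the 3 libraries, and ATR, ATRIP and UBE2T were the members of the list not called in all of them.

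Other genes among the 12 with the largest ratios had no place in the replication list. DTL, the receptor that marks CDT1 for destruction in S phase, was at 25.5, 24.5 and 26.0 CPM in S-only cells, against 1.58, 2.45 and 0.930 CPM. FAM111B was at 55.9, 37.5 and 15.8 CPM, against 2.26, 4.20 and 1.44 CPM. ERCC6L, a DNA translocase of mitosis, was at 24.0, 33.4 and 11.6 CPM, against 0.893, 2.80 and 0.605 CPM, and KNTC1, a kinetochore protein, was at 25, 15.7 and 20.5 CPM, against 1.73, 1.53 and 0.791 CPM. NCAPD3, a condensin subunit, had ratios of 10.7, 11.5 and 9.06.

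Genes of G1 and S control were mostly too low to be measured. CDK4 and RBL1 were the 2 called higher of 3 measured. CDK4, a kinase of G1, was at 159, 143 and 153 CPM in S-only cells, against 85.1, 91.0 and 77.1 CPM. RBL1, a relative of RB1, was at 45.4, 32.7 and 32.2 CPM, against 10.5, 14.3 and 8.84 CPM. CCNE2, a cyclin of S phase entry, was at 7.99, 4.77 and 10.3 CPM, against 0.263, 0.481 and 0.186 CPM, under the measured level. CCND2, a cyclin of G1, was measured and not called, with ratios of 0.907, 1.09 and 1.37.

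Despite the limit of 1 late cell cycle UMI, other genes of G2 and mitosis summed higher in S-only cells than in cells with both sums 0. The 42 genes summed to 797, 867 and 530 CPM in S-only cells, against 166, 176 and 110 CPM, ratios of 4.82 (4.53 to 5.12), 4.92 (4.62 to 5.24) and 4.81 (4.43 to 5.22). Of 10 measured, 9 were called higher in all 3 libraries. CDK1, the mitotic kinase, was at 28.0, 38.9 and 23.3 CPM, against 2.05, 3.67 and 2.33 CPM. SMC2, a core condensin subunit, was at 163, 152 and 102 CPM, against 15.4, 15.7 and 10.4 CPM. KNL1 and NUF2, kinetochore proteins, had ratios of 19.0, 15.1 and 13.9 and of 10.6, 9.74 and 13.3. SGO2 was not called, with ratios of 1.0, 1.25 and 0.885. Both sets of cells were defined by late cell cycle UMIs, up to 1 in S-only cells and 0 in the others, so the size of these ratios depends on the rule.

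S-and-mitotic cells, which passed the same limit on CLSPN and RRM2, were the nearest set for comparison. The replication list was about as high in them, at 3813, 3495 and 3821 CPM, with ratios of S-only over S-and-mitotic cells of 0.979 (0.954 to 1.0), 0.953 (0.921 to 0.985) and 0.866 (0.840 to 0.893). The 42 G2 and mitosis genes were at 3265, 2461 and 3033 CPM in S-and-mitotic cells, ratios of 0.244 (0.232 to 0.257), 0.352 (0.332 to 0.374) and 0.175 (0.163 to 0.188). Of 4261 genes, 3 (0.0704%) were called higher in S-only than in S-and-mitotic cells in all 3 libraries and 56 (1.31%) lower. All 10 measured G2 and mitosis genes were among those 56, a direction that the rule fixes.

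The licensing list leaned toward S-only cells, with ratios over S-and-mitotic cells of 1.29 (1.21 to 1.37), 1.19 (1.09 to 1.30) and 1.12 (1.04 to 1.21). MCM4, MCM5, MCM6, MCM10 and CDT1 had their highest level of the 4 sets in S-only cells in all 3 libraries, and 1 of 14 licensing genes had it in S-and-mitotic cells in all 3. MCM5 was at 49.4, 45.7 and 58.2 CPM in S-only cells, against 34.1, 32 and 42.2 CPM in S-and-mitotic cells. DTL was at 25.5, 24.5 and 26.0 CPM, against 15.9, 11 and 19.1 CPM. None of the other replication lists had a summed ratio above 1 in all 3 libraries. Helicase activation was mixed, with summed ratios of 0.969, 1.02 and 0.811. Of 14 chromatin assembly genes, 2 (CHAF1A and HELLS) were highest in S-only cells and 8 in S-and-mitotic cells in all 3 libraries, and the list had ratios over S-and-mitotic cells of 0.896, 0.869 and 0.810. The split was 2 against 4 for the 11 clamp genes, 4 against 5 for the 13 checkpoint and repair genes, 2 (TIMELESS and GINS2) against 0 for the 6 helicase activation genes and 0 against 2 for deoxynucleotide supply. RRM1 stood at 51.4, 47.7 and 47.3 CPM in S-only cells, against 70.0, 68.2 and 85.4 CPM. These named peaks were picked after their values were seen.

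The 3 genes called higher than in S-and-mitotic cells in every library were MSH6, UNG and an unnamed gene, named after their values were seen. MSH6, which detects mismatches left by the polymerase, was at 177, 140 and 127 CPM in S-only cells, against 95.4, 90.4 and 73.9 CPM in S-and-mitotic cells, ratios of 1.86 (1.63 to 2.11), 1.55 (1.29 to 1.85) and 1.72 (1.45 to 2.04). UNG, the glycosylase that removes uracil from DNA, was at 54.9, 53.9 and 47.9 CPM, against 25.9, 20.7 and 24.9 CPM, ratios of 2.12 (1.67 to 2.69), 2.60 (1.86 to 3.63) and 1.92 (1.44 to 2.54). Cells with both sums 0 were at 67.3, 70.6 and 50.1 CPM for MSH6 and at 13.3, 13.3 and 14.3 CPM for UNG. Both genes were thus highest in S-only cells of the 3 sets, which the rule had split by late cell cycle UMIs.

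**Figure D3:**
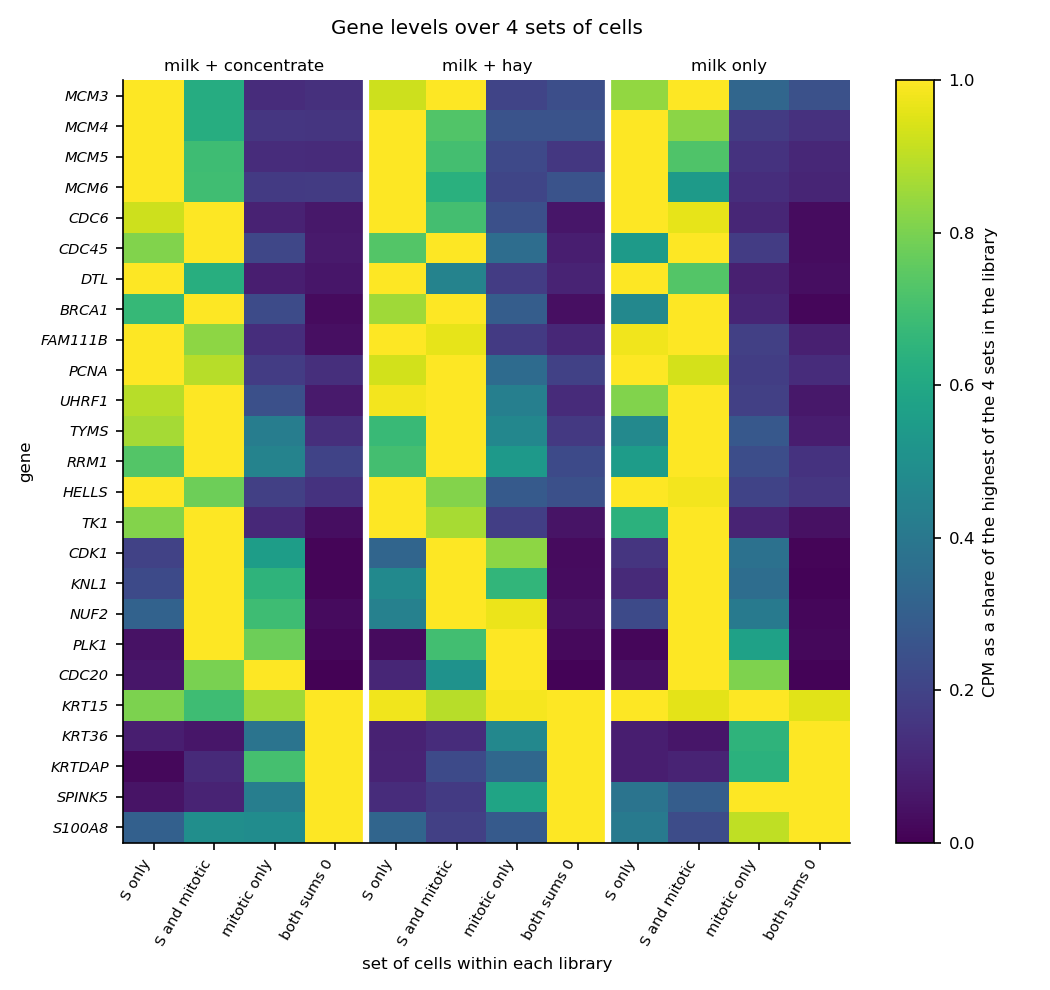
CPM of chosen genes in S-only, S-and-mitotic, mitotic-only and both-sums-0 cells of each library, as a share of the highest of the 4 sets in that library (color). MCM4, MCM5, MCM6, DTL and HELLS are brightest in S-only cells, CDK1, KNL1 and NUF2 in S-and-mitotic cells in each library, and KRT36 and KRTDAP in cells with both sums 0.

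Some differentiation genes were low in S-only cells. KRTDAP, which marks keratinocytes that leave the basal layer, was at 1.5, 4.77 and 38.4 CPM in S-only cells, against 74.9, 47.9 and 458 CPM, ratios of 0.0200 (0.00412 to 0.0585), 0.0997 (0.0400 to 0.206) and 0.0837 (0.0631 to 0.109). Only 3 and 7 UMIs lay behind the concentrate and hay levels. KRT36, a keratin, was at 11.5, 8.18 and 116 CPM, against 138, 83.8 and 1363 CPM. In milk only, 72 of its 170 S-only UMIs lay in 1 cell, and the level was 68.4 CPM without that cell. These were the 2 of 8 measured spinous genes called lower in all 3 libraries. DSP and JAG1 of the same list were not called, with ratios of 0.926, 0.897 and 1.28 for DSP. Per cell, the spinous list had medians of 6.35, 4.47 and 5.51 UMIs per 10000 in S-only cells, against 6.15, 4.50 and 6.99, so the concentrate median was slightly above that of cells with both sums 0 and the hay medians were alike. Of 5 measured differentiation regulators, 0 were called in all 3 libraries, and the list had ratios of 0.746, 0.948 (0.830 to 1.08) and 0.674. Cells with both sums 0 were not split by layer, so these ratios also depend on which layers that set held. With all cells holding a KRTDAP, KRT36 or A2ML1 UMI left out of both sets, an alternative chosen after seeing the data, 7 genes in place of 38 were called lower in all 3 libraries.

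Of 10 measured genes of the granular and cornified layers, 6 were called lower in all 3 libraries, and the list summed to 387, 232 and 2751 CPM in S-only cells, against 914, 522 and 6772 CPM. SPINK5, a protease inhibitor of the upper layers, was at 14, 16.4 and 342 CPM, against 268, 131 and 887 CPM. S100A8 and S100A9, partners in a calcium-binding complex, were at 41.4, 14.3 and 804 CPM and at 24.0, 10.9 and 493 CPM in S-only cells, against 135, 43.9 and 1947 CPM and 59.7, 40.2 and 1564 CPM. TGM1, which crosslinks the cornified envelope, was at 2.50, 0 and 27.4 CPM, against 8.88, 5.69 and 80.8 CPM. Without 1 milk-only cell, the milk-only S-only levels were 463 CPM for S100A8, 212 CPM for S100A9 and 16 CPM for TGM1. PI3, a protease inhibitor, had 1 UMI in milk-only S-only cells, at 0.685 CPM, against 109 CPM in milk-only cells with both sums 0. Per cell, the cornified list had medians of 3.13, 1.92 and 7.29 UMIs per 10000 in S-only cells, against 2.79, 2.31 and 10.6, so the concentrate median did not share the direction of the sum.

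One milk-only member carried much of that library's cornified signal. It had 26620 UMIs, 7 of CLSPN and RRM2 and 1 of the late cell cycle genes, and it held 1787 of 4016 cornified list UMIs. It gave 312 of 313 CNFN UMIs, all 108 PRD-SPRRII UMIs, 175 of 210 A2ML1 UMIs, 66 of 71 SULT2B1 UMIs and 416 of 720 S100A9 UMIs. CNFN and PRD-SPRRII encode proteins of the cornified envelope. Its replication list stood at 17.3 UMIs per 10000, under the lower quartile of 21.2 of the milk-only members, while KRT15 gave 102 of its UMIs. Without it, the milk-only cornified ratio over cells with both sums 0 was 0.230 (0.220 to 0.239), against 0.406 (0.394 to 0.419) with it. Doublets were kept, and whether this barcode held more than 1 cell was not tested.

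Basal genes summed close to the level of cells with both sums 0. The 18 genes summed to 9703, 7976 and 11717 CPM in S-only cells, against 11539, 8298 and 11572 CPM, ratios of 0.841 (0.829 to 0.853), 0.961 (0.943 to 0.979) and 1.01 (0.997 to 1.03). KRT15 alone gave 7110, 6259 and 8139 CPM of the S-only sums, so these ratios are mostly those of 1 gene. The 11 measured genes had a median log2 ratio of 0.05, 0.23 and 0.37, with 6, 8 and 10 above 0. All measured genes had medians of 0.12, 0.12 and 0.18. None of the 11 was called in all 3 libraries in either direction. KRT15 had ratios of 0.803, 0.977 and 1.04, and TP63, the factor that maintains stratified epithelia, had ratios of 0.985, 1.17 and 1.29. ITGB1 and ITGA6, integrin chains that hold basal cells to the matrix, had ratios of 1.15, 1.32 and 1.41 for ITGB1 and of 1.05, 1.22 and 1.43 for ITGA6. Integrin ratios lay above 1 in each library, without passing 1.5-fold in any.

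CDKN1A, which encodes the cell cycle inhibitor p21, was the 1 of 10 measured arrest genes called lower in all 3 libraries. It was at 8.99, 2.73 and 56.9 CPM in S-only cells, against 16.6, 11.6 and 120 CPM, ratios of 0.543 (0.318 to 0.872), 0.235 (0.0636 to 0.609) and 0.473 (0.375 to 0.589). CDKN1B, which encodes p27, was not called, with ratios of 0.800, 0.853 and 0.929. The milk-only level of CDKN1A in S-only cells was above the level of the other libraries in cells with both sums 0.

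Immediate early genes, which respond within minutes to growth factors and to stress such as dissociation, did not move alike. Of 9 measured, 6 were called lower in S-only cells with concentrate, 0 with hay and 3 with milk only. FOS was at 209, 380 and 954 CPM in S-only cells, against 642, 413 and 1387 CPM, and ZFP36 was at 88.4, 146 and 1018 CPM, against 255, 152 and 2068 CPM. The list summed to 844, 1341 and 4026 CPM, against 1951, 1398 and 6459 CPM, but the top 3 cells of each library gave 21.5%, 14.6% and 21.5% of the members' list UMIs. Per cell the medians were 2.87, 3.73 and 5.79 UMIs per 10000, against 3.64, 3.31 and 6.35.

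Serine and purine synthesis genes were called higher in S-only cells of all 3 libraries for 3 of 10 measured, against 4.65% of all measured genes. PHGDH, the entry enzyme of serine synthesis, was at 78.4, 50.5 and 85.6 CPM, against 36.5, 22.3 and 38.4 CPM. PSPH, the last enzyme of that route, was at 185, 43.6 and 53.4 CPM, against 99.2, 28.4 and 29.2 CPM. GMPS, of guanine nucleotide synthesis, had ratios of 2.25, 1.63 and 2.39. In the list of growth and ribosome biogenesis genes, NOLC1 was the 1 of 15 called higher in all 3 libraries, a count near the 4.65% of all measured genes. In single libraries 3, 2 and 10 of the 15 were called higher, against 11.3%, 9.46% and 15.9% of all measured genes. Log2 ratios lay above 0 for 13, 15 and 13 of the 15. The list summed to ratios of 1.3, 1.28 and 1.45, each with an interval above 1, so it was modestly higher in S-only cells of every library. MYC had ratios of 1.11, 1.52 and 0.788. SMC1A and SMC3, cohesin subunits, were the 2 called higher of 9 in their list, with ratios between 1.63 and 2.36.

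Metabolic genes of the rumen lining showed no call shared by the libraries. The ketogenesis list, which turns butyrate and fatty acids into ketone bodies, had ratios of 0.959 (0.921 to 0.998), 0.952 (0.914 to 0.991) and 1.03 (0.979 to 1.09), with 0 of 9 measured genes called in any library. Of 33 measured oxidative phosphorylation genes and 6 transport genes, 0 were called in all 3 libraries. The transport list summed to ratios of 0.967, 0.817 and 0.722. Its 6 measured genes had a median log2 ratio of -0.017, -0.158 and 0.079, with 3, 2 and 4 above 0. The milk-only median thus did not share the direction of the sum. ISG15 was the interferon gene called lower, at 0, 0 and 16.4 CPM, against 3.15, 7.22 and 57.9 CPM, and 19 of its 24 milk-only UMIs lay in 1 cell.

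**Figure D4:**
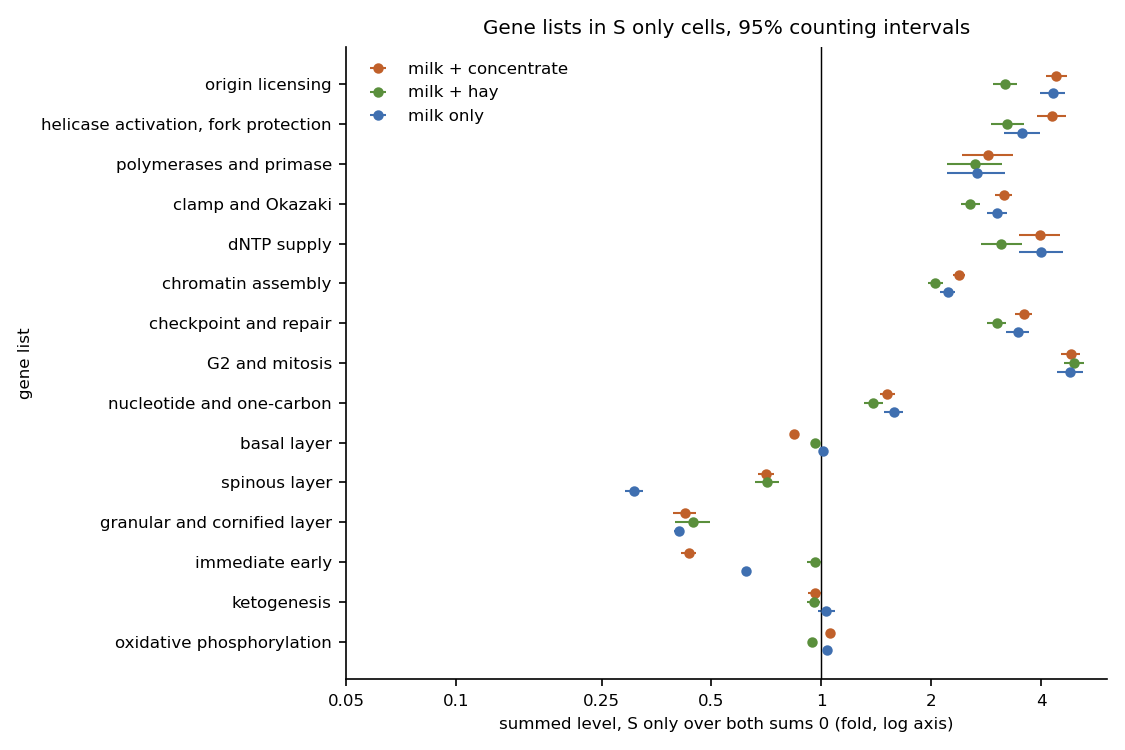
Summed level of 15 gene lists in S-only cells over cells with both sums 0 in 3 libraries, on a log axis. Bars are exact conditional 95% intervals for counting error. Replication, checkpoint and G2 and mitosis lists lie above 1, basal, ketogenesis and oxidative phosphorylation lists near 1, and spinous and cornified lists below 1 in each library.

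Between diets, S-only cells differed little in the replication list. Its ratio was 1.13 (1.09 to 1.17) for concentrate over milk only, 1.01 (0.966 to 1.05) for hay over milk only and 1.12 (1.08 to 1.16) for concentrate over hay. In cells with both sums 0 the list stood at 1.05, 1.14 and 0.923 for these pairs, so concentrate over hay lay below 1 there. A gene was called between diets at 2-fold or more with an interval excluding 1. Of 50 measured replication genes, 1 was called higher and 0 lower for concentrate over milk only, against 3.57% and 6.22% of all genes. For hay over milk only 0 were called in either direction, against 2.16% and 9.43%, and for concentrate over hay 0, against 5% and 1.06%. The median log2 ratio of all genes within S-only cells was -0.02, -0.19 and 0.15 for these pairs, so the replication ratios sit on unlike backgrounds. The checkpoint and repair list differed more, at 1.48 (1.37 to 1.59) for concentrate over milk only, with 3 of 13 genes called higher, and 1.33 (1.22 to 1.44) for hay over milk only, with 2 called higher. The G2 and mitosis list stood at 1.5 (1.38 to 1.64) and 1.64 (1.49 to 1.79) for the same pairs. The arrest list stood at 0.690 (0.650 to 0.732) and 0.503 (0.468 to 0.540), with 5 and 6 of 10 genes called lower. In cells with both sums 0 the checkpoint and repair list stood at 1.42 and 1.51 for these pairs, with 2 and 5 genes called higher. The G2 and mitosis list stood there at 1.5 and 1.6, and the arrest list at 0.730 and 0.416, with 5 and 7 genes called lower. These lists thus shifted the same way in both sets of cells, so their diet ratios are not particular to S-only cells.

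Most genes called between diets in S-only cells moved the same way in cells with both sums 0. For concentrate over milk only, 152 genes were called higher and 265 lower, and 409 of these 417 had the same direction in cells with both sums 0. For hay over milk only 92 were higher and 402 lower, with 478 of 494 alike, and for concentrate over hay 213 were higher and 45 lower, with 245 of 258 alike. Cells with both sums 0 had 2.72% of genes called higher and 5% lower for concentrate over milk only, 2.61% and 8.17% for hay over milk only, and 3.05% and 0.728% for concentrate over hay. The size of the ratio differed between the cell sets by at least 2-fold, with an interval of the difference that excluded 0, for 90 (2.11%), 145 (3.4%) and 92 (2.16%) of 4261 genes. The pairs share libraries, and their counts are set side by side without comparison.

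Concentrate S-only cells had more of several genes than milk-only ones. LGALS1, a galectin, was at 245 CPM in concentrate members, against 4.11 CPM in milk-only members, a ratio of 59.5 (27.2 to 163), and hay stood at 2.05 CPM. PTHLH, the parathyroid hormone-like hormone, was at 112 CPM in concentrate members, against 4.11 CPM in milk-only members, a ratio of 27.2 (12.3 to 74.9). These rested on 6 milk-only UMIs each. MACC1 and LIPA, which encodes lysosomal acid lipase, had ratios of 4.63 (3.21 to 6.86) and 3.66 (2.80 to 4.84). FAM111B was at 55.9 CPM in concentrate members, against 15.8 CPM in milk-only members. In cells with both sums 0 its diet ratio was 1.57, against 3.55 in S-only cells, a log2 difference of 1.18 (0.25 to 2.11).

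Cornified genes were among the lowest for concentrate over milk only and for hay over milk only. S100A8 was at 41.4 CPM with concentrate and 14.3 CPM in hay members, against 804 CPM in milk-only members. The milk-only value was 463 CPM without the cell described above, which alone held 511 of 1174 UMIs. SPINK5 was at 14 and 16.4 CPM, against 342 CPM, and 300.0 CPM without that cell. CNFN, at 0 UMIs with concentrate and with hay, against 214 CPM with milk only, was at 0.698 CPM without it, so no diet ratio for CNFN or PRD-SPRRII stands without 1 cell. TNFRSF6B, a decoy receptor, was at 14 and 2.05 CPM, against 157 CPM, spread over 20 milk-only members. CCNL1, a cyclin of RNA splicing, was at 14 CPM in concentrate members, against 194 CPM in milk-only members, where 49 of 75 cells held it.

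Hay S-only cells had more of several metabolic genes than milk-only ones. HADH, of fatty acid oxidation, had a ratio of 2.80 (1.85 to 4.33), FBP1, of glucose synthesis, 3.10 (2.11 to 4.64) and MAOA, a monoamine oxidase, 2.65 (2.11 to 3.35). LY96, the partner of the receptor TLR4, was at 68.2 CPM in hay members, against 19.2 CPM in milk-only members. In cells with both sums 0 the hay over milk-only ratios were 2.85 for HADH and 3.09 for LY96, close to those in S-only cells.

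For concentrate over hay, FABP4, a fatty acid binding protein, was at 5831 CPM with concentrate, against 400 CPM with hay, a ratio of 14.6 (13.4 to 15.9) in S-only cells and 7.0 in cells with both sums 0. THEM5, a thioesterase, was at 438 CPM, against 51.1 CPM, and IGFBP5, which binds insulin-like growth factors, at 261 CPM, against 47.0 CPM. PSPH was at 185 CPM with concentrate, against 43.6 CPM with hay. PSMB8 and PSMB9, subunits of the immunoproteasome, were lower, at 26.5 and 16.5 CPM with concentrate, against 94.8 and 86.6 CPM with hay, and 15 of the 33 concentrate PSMB9 UMIs lay in 1 cell. IDI1, of isoprenoid synthesis, was at 79.9 CPM, against 211 CPM. HIRIP3, a histone binding protein, was at 58.9 CPM with concentrate, against 21.8 CPM with hay, a ratio of 2.70 (1.81 to 4.13) in S-only cells and 1.25 in cells with both sums 0. FOS and ZFP36 differed in direction between the sets, with ratios of concentrate over hay of 0.550 and 0.606 in S-only cells, against 1.55 and 1.68 in cells with both sums 0.

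**Figure D5:**
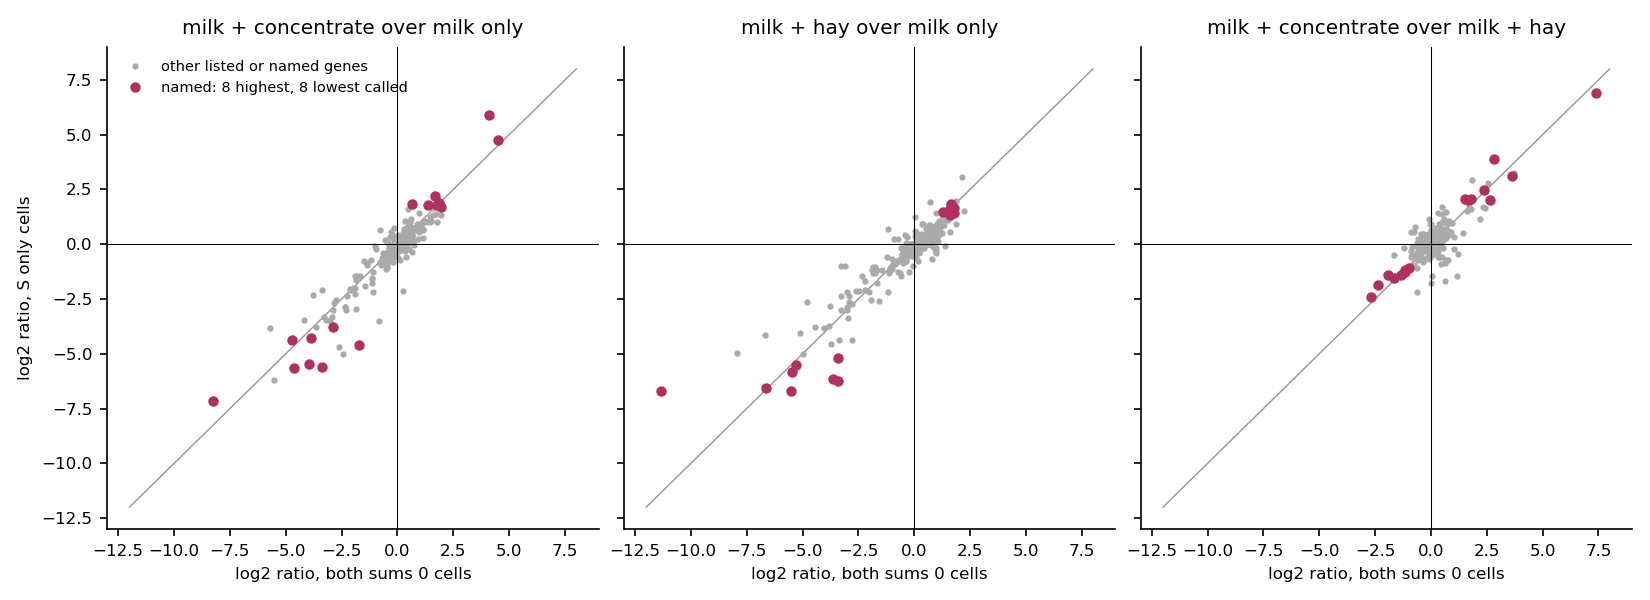
Log2 diet ratios in S-only cells (vertical) against the same ratios in cells with both sums 0 (horizontal) for measured genes of the lists and named genes, with the line of equal ratios. A count of 0 is plotted at 3 counts, and genes with 3 or fewer UMIs in both libraries of a set are left out. Red points are the 8 highest and 8 lowest called genes of each pair with at least 50 CPM in the higher library, so gray points of lower level can lie beyond them, and most points lie near the line.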

How the data were processed

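UMI counts were measured in 3 single-cell libraries, 1 per diet. The authors deposited raw UMI counts per gene and barcode, unit counts, made with Cell Ranger. The version is 3.1 per the submitters' processing notes and 5.0.0 per the file headers. The sources used here do not give the genome build, its annotation or how barcodes were selected. The matrices listed 26247 genes, 17043 with a symbol, and gene identifiers were used as deposited.

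From these counts, cells were filtered and assigned by the rule in the text, UMIs were summed per library and cell set, and CPM, ratios with exact conditional binomial intervals and shares with Clopper-Pearson intervals were computed at 95%. A count of 0 entered ratios as 3 counts. Doublets were kept and no caller was run. The computations were tested on simulated data. Python 3.11.15, numpy 2.4.6, scipy 1.17.1, pandas 2.3.3 and matplotlib 3.10.9 were used. The members, gene lists and rule for names were chosen with earlier results of these data known. Named genes were the 12 highest and 12 lowest by their smallest ratio over the libraries, up to 6 called genes of each list, and per diet pair the 8 highest and 8 lowest of at least 50 CPM and those differing most between cell sets. Other genes are named as list members or, where said, after their values were seen. Of 94 replication genes, 79 had a symbol and 50 were measured. Alternatives changed the rule, filters, depth, scaling and level limit. Depth was 56861548 to 63057979 UMIs a library, and intervals cover counting error only. Some genes that the rule names are not reported here.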

Additional observations from a re-analysis of the deposited data

Results flagged for a closer look

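Among measured genes of the lists and named genes, CCNL1 and GSTM3 were called in opposite directions in different libraries. Here S-only cells were set over cells with both sums 0. The other measured genes were not searched for such calls. CCNL1 had a log2 ratio of -0.90 with concentrate, 0.62 with hay and 0.03 with milk only. GSTM3, a glutathione transferase, had a log2 ratio of 0.01 with concentrate, 0.91 with hay and -1.26 with milk only. The difference between libraries was not tested, as each diet had 1 library. Of the 403 GSTM3 UMIs of milk-only members, 139 lay in 1 cell.

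Some barcodes left out for few genes or a high mitochondrial share also held UMIs of CLSPN and RRM2. Of 4323 concentrate, 2512 hay and 3182 milk-only barcodes that failed those limits, 43 (0.995%), 21 (0.836%) and 16 (0.503%) had at least 2 UMIs of CLSPN and RRM2 and no more than 1 late cell cycle UMI. These shares exceed the limits of 0.0694%, 0.119% and 0.0943% that a count of 0 allows, which any count above 3 would pass. The limits are thus no measure of free RNA. These barcodes were not screened for PTPRC, COL3A1, PECAM1 or C1QA. They were used in no comparison.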

How the results depend on the processing

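Of 247 checks of the main results under other settings, 158 stayed close and 89 moved. Of 1400 checks of single genes and of medians over all genes, 164 moved. No ratio whose interval excluded a log2 of 0 was recorded as changing sign. For single genes in S-only cells over cells with both sums 0, the value checked was the smallest ratio over the libraries. It was set to 0 where the libraries disagreed in sign, so a flip in only some libraries could not be recorded as a change of sign. The replication list for hay over milk only, at 0.00798 with an interval from -0.0497 to 0.0656, changed sign to -0.0558 with at least 3 UMIs of CLSPN and RRM2, -0.0167 with a late cell cycle sum of 0, -0.0695 without the deepest cells, -0.0841 without cells holding a KRTDAP, KRT36 or A2ML1 UMI and -0.00478 without 1 milk-only cell. The ratios below are log2, in the order concentrate, hay and milk only unless said; S-only cells are set over cells with both sums 0. The first values were shares of 3.84%, 2.61% and 2.22%, replication ratios of 1.59, 1.31 and 1.49, and G2 and mitosis ratios of 2.27, 2.30 and 2.27. The cause of each shift was not tested.

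With at least 1 UMI of CLSPN and RRM2, shares were 9.0%, 8.65% and 5.60%, replication ratios 1.25, 1.08 and 1.17, and G2 and mitosis ratios 1.81, 1.87 and 1.80, and the replication list stood at 0.0971 for hay over milk only and 0.0565 for concentrate over hay. With at least 3, shares were 2.28%, 0.917% and 1.57%, replication ratios 1.68, 1.39 and 1.64, and G2 and mitosis ratios 2.38, 2.44 and 2.51. There 25 genes were called lower and 75 lower for concentrate over hay, and the replication list stood at 0.11 for concentrate over milk only and -0.0558 for hay over milk only. With a late cell cycle sum of 0, shares were 2.04%, 1.48% and 1.33%, the concentrate replication ratio 1.54, the G2 and mitosis ratios 2.15 for concentrate and 2.15 for hay, and 72 genes were lower for concentrate over hay. With at least 1000 genes, shares were 4.52% for concentrate and 3.78% for hay, and hay had ratios of 1.20 and 2.19. Thinning to 3000 UMIs gave shares of 2.12%, 0.951% and 0.967%.

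With a mitochondrial share under 10%, replication ratios were 1.52, 1.24 and 1.41. Without the deepest cells, the concentrate ratio was 1.63, and the replication list stood at -0.0695 for hay over milk only and 0.23 for concentrate over hay. With other cell types kept, milk only had ratios of 1.42 and 2.14. Weighting cells with both sums 0 by depth gave 1.65 and 2.41 for concentrate, 1.55 and 2.41 for milk only, and 67 genes called lower. Median-of-ratios scaling gave replication ratios of 1.46, 1.16 and 1.27 and G2 and mitosis ratios of 2.14, 2.16 and 2.05. It gave 162 genes higher for hay over milk only and 75 lower for concentrate over hay, and a replication list at 0.20 and 0.0105 for these pairs. Totals without the top 50 genes gave 1.5 and 2.18 for concentrate and a replication ratio of 1.25 for hay, with the list at 0.13 for hay over milk only and 0.0894 for concentrate over hay.

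A level limit of 1 CPM gave 309 genes called higher, and between diets 295 higher and 570 lower for concentrate over milk only, 155 and 771 for hay over milk only, and 386 and 101 for concentrate over hay. A limit of 50 CPM gave 61 higher and 23 lower, and between diets 38 and 73, 22 and 97, and 28 and 15 for the same pairs. The following alternatives were chosen after seeing the data. Leaving out cells with a KRTDAP, KRT36 or A2ML1 UMI gave replication ratios of 1.54 for concentrate and 1.37 for milk only, 7 genes called lower, and the list at 0.0784 for concentrate over milk only and -0.0841 for hay over milk only. Leaving out the concentrate library gave 58 genes called lower, and leaving out hay gave 304 higher and 62 lower. Leaving out the milk-only library gave 239 higher and 42 lower. Leaving out the 1 milk-only cell rich in cornified transcripts moved 0 of 20 main values and 10 of 118 checks of single genes and of medians over all genes.

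No paired analysis was possible because each diet had 1 library, so the groups share a single replicate number. Single genes with 3 or fewer UMIs in both sums under a setting gave no value there. Depth limits the low genes, such as CDC45, TYMS and CCNE2.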
